A study of Mus musculus with 106 samples.

Results

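Broad H3K4me3 domains are stretches of chromatin in which H3K4me3, the trimethyl mark that sits at the start sites of active genes, runs on for several kilobases. Peaks of H3K4me3 within 1 kb of each other were joined in each of 35 peak lists, intervals of 4 kb or more were merged over the lists, and merged regions overlapped by such an interval in at least 12 lists were kept. This gave 976 broad domains out of 8489 merged regions that were broad in any list, and out of 19657 H3K4me3 regions in all. The members were selected on the measured H3K4me3 widths, so those widths are described here without a test.

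The lists came from ChIP-seq of C57BL/6J mice. Control mice were compared with mice made diabetic by streptozotocin (STZ, a toxin of the insulin-producing beta cell) at 42 to 45 mg/kg on 5 days, taken 6 weeks later with a blood glucose above 13.9 mmol/L. The mice were 12 to 14 weeks old when they were assigned to a group. Bone marrow depleted of lineage-committed cells is called HSC (hematopoietic stem cells) by the labels, although the depletion enriches for stem cells and does not sort them. Bone marrow-derived macrophages (BMDM) were grown for 7 days in medium with 5 mmol/L glucose and L929-conditioned medium, then left unstimulated or given 100 ng/mL LPS with 10 ng/mL IFN-γ for 16 h. Both disease groups were cultured in the same way. Each mark had 12 HSC lists, 11 unstimulated BMDM lists and 12 LPS+IFN-γ BMDM lists, with 6 libraries in each disease group except 5 in diabetic unstimulated BMDM.

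H3K4me3 is laid down by the SET1 and MLL families of methyltransferases, largely at CpG-rich promoters. In most cells the mark forms a narrow peak at the start site, and the widest domains are known to lie over genes that define the cell and over regulators of development. H3K27ac, the acetylation found at enhancers and promoters in use, was read in other libraries of the same cells and was not used to choose the domains. Most of the lists that chose them were BMDM lists, however, so counts of domains called between HSC and BMDM are a description of the set.

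The promoters below are shown for 3 kinds of domain that the H3K27ac lists set apart: Dio3 and Trim71, wide in H3K4me3 with little H3K27ac; Gata2 and Rbm38, with more H3K27ac in HSC; and C1qb and Pmp22, with more H3K27ac in unstimulated BMDM. Each line gives the 250 bases before the RefSeq start site (build GRCm38.p6), read 5′ to 3′ on the strand of the gene, with CG dinucleotides in capitals. The windows lie at chr12:110278980-110279229 (plus strand, Dio3), chr9:114564370-114564619 (minus, Trim71), chr6:88193641-88193890 (plus, Gata2), chr2:173021652-173021901 (plus, Rbm38), chr4:136886201-136886450 (minus, C1qb) and chr11:63131207-63131456 (plus, Pmp22).
Dio3: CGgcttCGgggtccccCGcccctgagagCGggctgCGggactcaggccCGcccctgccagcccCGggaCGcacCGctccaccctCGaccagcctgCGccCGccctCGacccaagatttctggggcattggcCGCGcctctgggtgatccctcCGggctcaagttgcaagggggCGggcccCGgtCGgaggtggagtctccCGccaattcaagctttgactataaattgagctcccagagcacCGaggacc
Trim71: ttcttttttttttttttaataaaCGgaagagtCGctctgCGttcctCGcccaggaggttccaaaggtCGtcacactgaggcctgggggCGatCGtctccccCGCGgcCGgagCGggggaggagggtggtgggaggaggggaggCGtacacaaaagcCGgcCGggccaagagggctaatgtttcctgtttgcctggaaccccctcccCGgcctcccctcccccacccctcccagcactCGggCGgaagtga
Gata2: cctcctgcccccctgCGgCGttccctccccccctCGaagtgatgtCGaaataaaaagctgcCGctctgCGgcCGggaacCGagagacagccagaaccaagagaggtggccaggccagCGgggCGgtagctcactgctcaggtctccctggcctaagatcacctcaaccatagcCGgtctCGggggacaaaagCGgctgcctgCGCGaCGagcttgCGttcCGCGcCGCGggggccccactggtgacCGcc
Rbm38: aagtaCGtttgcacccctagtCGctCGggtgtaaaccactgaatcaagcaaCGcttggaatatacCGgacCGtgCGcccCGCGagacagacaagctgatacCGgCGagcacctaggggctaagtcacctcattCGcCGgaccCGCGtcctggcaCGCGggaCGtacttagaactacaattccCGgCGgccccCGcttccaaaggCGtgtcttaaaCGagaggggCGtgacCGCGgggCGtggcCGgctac
C1qb: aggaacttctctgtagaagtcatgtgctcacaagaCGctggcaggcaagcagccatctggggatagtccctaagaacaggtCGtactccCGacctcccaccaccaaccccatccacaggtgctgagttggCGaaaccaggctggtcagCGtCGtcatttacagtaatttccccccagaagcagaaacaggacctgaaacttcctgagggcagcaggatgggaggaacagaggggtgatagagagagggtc
Pmp22: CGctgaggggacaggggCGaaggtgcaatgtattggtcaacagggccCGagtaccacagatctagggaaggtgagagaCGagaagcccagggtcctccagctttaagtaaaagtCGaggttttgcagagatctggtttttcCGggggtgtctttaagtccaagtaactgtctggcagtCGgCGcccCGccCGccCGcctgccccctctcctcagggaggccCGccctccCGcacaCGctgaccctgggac

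Rbm38 held 28 CG dinucleotides in this window, Gata2 22, Dio3 21, Trim71 17, Pmp22 14 and C1qb 6. Among 20143 RefSeq promoter windows of protein-coding genes, 10.1% held at least as many as Rbm38, 20.1% as many as Gata2 and 22.3% as many as Dio3. The shares were 32.6% for Trim71, 40.8% for Pmp22 and 63.8% for C1qb. Of the 893 protein-coding genes with a start site in a broad domain, 655 had a promoter sequence, with a median of 16 CG dinucleotides against 10 in 15860 other protein-coding genes. Many of those others lacked the mark, since 9356 of 21827 protein-coding genes had a start site in any H3K4me3 region. The promoter windows of domain genes were not compared with those of other genes in H3K4me3 regions. Another measure was the density over the stretch of each region covered in at least 18 lists, or the whole region where there was none. Its medians were 4.32 CG dinucleotides per 100 bp in domains and 5.06 in other H3K4me3 regions. Regions without a protein-coding start site were included, so this density and the promoter count are not alike.

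Longer lists tended to hold more of the domains. H3K4me3 lists held 13730 to 277213 peaks, and between 7 and 961 of the 976 domains were 4 kb or wider in a list. The lowest count belonged to diabetic HSC replicate 6, which stands apart with the shortest list. In control HSC 99 to 526 domains (median 174) were broad in a library, in diabetic HSC 7 to 693 (median 463). The counts were 396 to 961 (median 828) in control and 263 to 711 (median 473) in diabetic unstimulated BMDM, and 211 to 958 (median 794.5) in control and 172 to 922 (median 609) in diabetic LPS+IFN-γ BMDM. Read totals were not available, so depth was unknown and its part in these counts was not tested. All groups overlapped. At least 50% of the unstimulated BMDM lists held 724 of the domains as broad, at least 50% of the LPS+IFN-γ BMDM lists 873, and at least 50% of the HSC lists 235. No HSC list was broad at 135 domains, while each domain was broad in at least 1 unstimulated and 1 stimulated BMDM list.

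**Figure D1:**
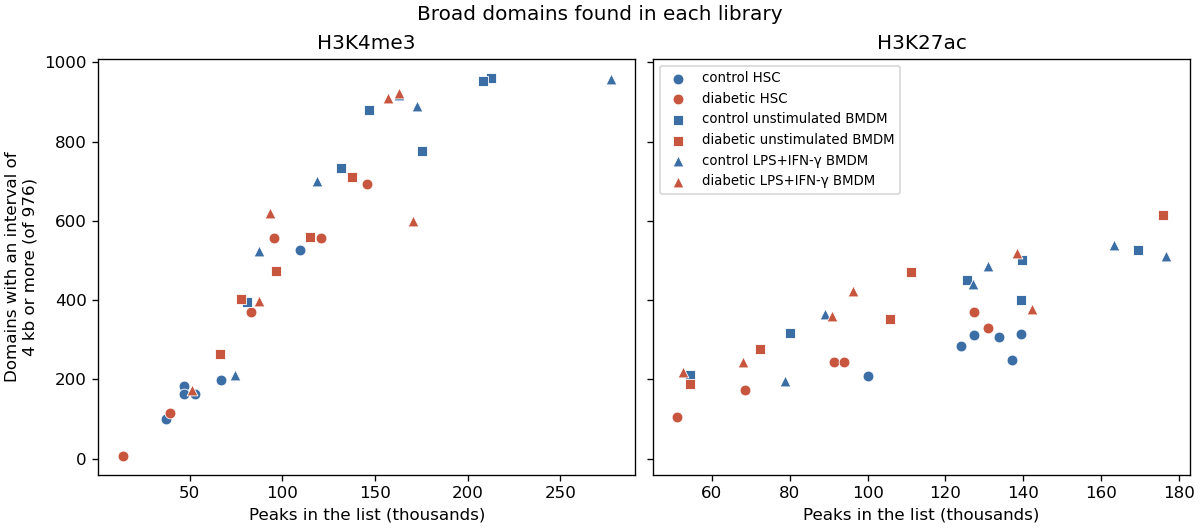
Number of the 976 broad domains overlapped by a joined interval of 4 kb or more in each library (vertical axis) against the number of peaks in its list, drawn in units of 1000 (horizontal axis), for H3K4me3 on the left and H3K27ac on the right, with 1 point per library. For H3K4me3 the count runs from 7 domains in the list of 13730 peaks to 961, and the HSC lists lie mostly at the short end.

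The cells matched their labels only in part. Over 9 macrophage marker genes the H3K27ac lists covered 3.65 to 10.1 kb in unstimulated BMDM and 0.612 to 4.21 kb in HSC, and over 9 stem and progenitor markers 8.06 to 15.2 kb in HSC and 3.64 to 10.5 kb in unstimulated BMDM. Both ranges overlapped. Fcgr1, Lyz2 and Msr1, markers of macrophages, had an H3K27ac peak in under 50% of unstimulated BMDM lists, while all 9 stem and progenitor markers had one in at least 50% of HSC lists. Gata2 and Hoxa9 are both markers and genes in domains. Between HSC and unstimulated BMDM the summed H3K27ac of 3 B cell, 4 T and NK cell, 4 neutrophil and 6 stimulated macrophage markers overlapped. A group of 3 control BMDM libraries went against their labels in H3K27ac. Among the H3K4me3 regions, 8 carried one of the strongest 10000 H3K27ac peaks in each diabetic LPS+IFN-γ BMDM library and in no diabetic unstimulated one, and 24 showed the reverse. Control LPS+IFN-γ replicate 5 held 1 of the 8 and 23 of the 24, whereas the other control LPS+IFN-γ libraries held 5 to 7 of the 8 and at most 7 of the 24. Control unstimulated replicates 5 and 6 each held 6 of the 8 and held 4 and 2 of the 24, whereas the other control unstimulated libraries held at most 1 of the 8 and 7 to 23 of the 24. Control unstimulated replicate 1, with 7 of the 24, held as many as control LPS+IFN-γ replicate 4. Results that rest on these 3 libraries are given with and without them. For H3K4me3 widths the libraries with the same 3 labels were left out. The check was made on H3K27ac only, so nothing shows that these H3K4me3 libraries go against their labels.

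A broad domain had a median merged length of 10.0 kb. Its width, the longest joined interval over it in a list, had a median over the 35 lists of 3.97 kb across domains (quartiles 3.11 and 4.89 kb), against 1.15 kb in the 18681 other H3K4me3 regions. 3 domains were broad in every list. At the threshold, the 123 domains broad in exactly 12 lists had median widths of 0.742 to 3.93 kb, and the 122 excluded regions broad in exactly 11 lists had 0.867 to 3.95 kb. The widest just inside were Pou3f1 (3.93 kb, a neural transcription factor), Nags (3.91 kb, an enzyme of the urea cycle) and Ntng2 (3.77 kb, a netrin relative). Among the widest just outside were a region on chromosome 7 without a protein-coding start site (3.95 kb) and Mycn (3.90 kb). Members and non-members at the threshold therefore had nearly the same widths.

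Of the 976 domains, 713 (73.1%) covered a protein-coding start site, 157 lay inside or over a protein-coding gene without one, 41 covered a long noncoding RNA start site and 65 were intergenic. Among the other H3K4me3 regions 42.4% covered a protein-coding start site. In the 482 domains over 1 gene whose longest interval held the start site in at least 12 lists, the mark reached a median of 3053 bp downstream and 1211 bp upstream, and 384 (79.7%) reached further into the gene than before it. The other regions reached 978 bp downstream and 411 bp upstream, with 84.7% reaching further downstream. The median GC content was 58.9% in domains and 60.5% in other regions, and CG dinucleotides numbered 4.32 and 5.06 per 100 bp.

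The strongest peak of a domain also tended to rank high. Each region was ranked within each list by the highest of the authors' fold enrichments over its peaks. The median domain stood at percentile 79.5 of all H3K4me3 regions and the median other region at 45.5. Domains are longer than the other regions, so their highest value can come from more peaks. The part of length in this rank was not tested. Peak fold and width came from the same lists that chose the domains, and no test was made.

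Start sites in broad domains were counted over gene lists, and no test was made of a difference between lists. Of 21827 protein-coding genes, 893 (4.09%) had a start site in a domain. Among 24 stem and progenitor transcription factors 8 did, among 22 macrophage transcription factors 7 did, and among 39 Hox genes, the body-axis regulators, 15 did. None of 14 stem and progenitor surface genes, 20 macrophage surface and effector genes, 11 neutrophil granule and maturation genes, 18 glycolysis and glucose transport genes or 39 proteasome subunit genes had one, and none of 1091 olfactory receptor genes. Of 26 LPS and interferon response genes 1 had one (Socs3, an inhibitor of cytokine signalling), of 12 lymphoid genes 2 (Bcl11b and Pax5), of 10 erythroid and megakaryocyte genes 2 (Gp1bb and Epor), and of 79 cytosolic ribosomal protein genes 3. There were 2 each from 18 H3K4 methylation and 15 H3K27 acetylation enzymes (Setd1b and Kmt2b, Brd2 and Hdac5). Only genes with a start site in some H3K4me3 region could be counted. These were 3 of the 14 stem and progenitor surface, 6 of the 20 macrophage surface and effector and 3 of the 11 neutrophil genes. They were 14 of the 18 glycolysis, 14 of the 39 proteasome and 1 of the 1091 olfactory receptor genes. Among the transcription factors they were 21 of the 24 stem and progenitor and 19 of the 22 macrophage ones. A pair of further families were chosen after their values were seen: 34 of 113 Sox, Pax, Fox, Lhx, Tbx and Nkx genes and relatives of Six3, and 4 of 30 Klf, Egr and Irf genes had a start site in a domain. Runx1, a regulator of blood stem cell formation, had one start site inside a domain, while no start site of Il6 or Hk1 lay in one.

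The widest domains over genes were of mixed kind. At Zbtb7a (chr10:81133889-81165435), which encodes a repressor of the BTB family active in blood lineages, the width ran from 1.87 to 18.1 kb in HSC (median 4.38 kb) and from 11.3 to 31.5 kb in unstimulated BMDM (median 16.9 kb), with 7.23 to 25.2 kb in LPS+IFN-γ BMDM. One HSC library reached the BMDM range and the rest lay below it. At Plec (chr15:76169373-76211370), the gene of the cytoskeletal linker plectin, widths were 0.381 to 13.4 kb in HSC (median 11.1 kb) and 12.2 to 32.2 kb in unstimulated BMDM (median 21.4 kb). The 2 ranges overlapped between 12.2 and 13.4 kb. At Tnrc18 (chr5:142811330-142824236) the medians were alike, 10.1 kb in HSC, 10.4 kb in unstimulated and 10.5 kb in stimulated BMDM. The domain over Cilp2 and Yjefn3 had a median width of 11.2 kb over the 35 lists.

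The other 4 of the 8 widest gene-bearing domains lay over predicted genes or over filaggrin. These were a domain at the start of the chromosome 9 sequence over 9 predicted genes, among them Gm10722 (median 38.5 kb), Flg (13.1 kb, the filaggrin of the skin barrier), Gm21887 on chromosome X (11.5 kb) and Gm47283 on chromosome Y (11.3 kb). The chromosome 9 domain was 38.5 kb in the median HSC list and 0 kb in at least 1 list of every cell state. Its H3K27ac covered a median of 0.131 kb in HSC and 34.7 kb in unstimulated BMDM. The widest of all was a domain of 88.7 kb on chromosome 8 near Gas8 that covers no protein-coding start site, broad in all 35 lists with a median width of 87.4 kb. Its H3K4me3 widths moved little in BMDM, where all lists lay between 87.1 and 88.6 kb. Its H3K27ac covered 0.598 to 70.7 kb in unstimulated BMDM. Repeats and how uniquely reads can be placed were not examined at any domain, and no list of problem regions was excluded here. The part of these in the widest domains was not tested. By the limma comparison described further on, 6 of the 8 widest gene-bearing domains had less H3K27ac in HSC than in unstimulated BMDM. The share was 24.3% of all domains tested and 14.5% of all regions. The 8 were ranked on widths from lists that were mostly BMDM lists, so nothing is read from this count. Among the 6 were Flg (-3.39 ± 0.53 on the log2 scale, adjusted p = 1.46e-05) and Plec (-0.52 ± 0.15, adjusted p = 0.00998). Of these 6 only Flg kept its call in every alternative, since the highest limma adjusted p was 0.277 at Plec, 0.400 at Cilp2 with Yjefn3, 0.761 at Gm21887, 0.648 at Gm47283 and 0.932 at the domain of Gm10722. Zbtb7a (-0.39 ± 0.17, adjusted p = 0.0826) and Tnrc18 (-0.07 ± 0.17, adjusted p = 0.766) were not called.

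**Figure D2:**
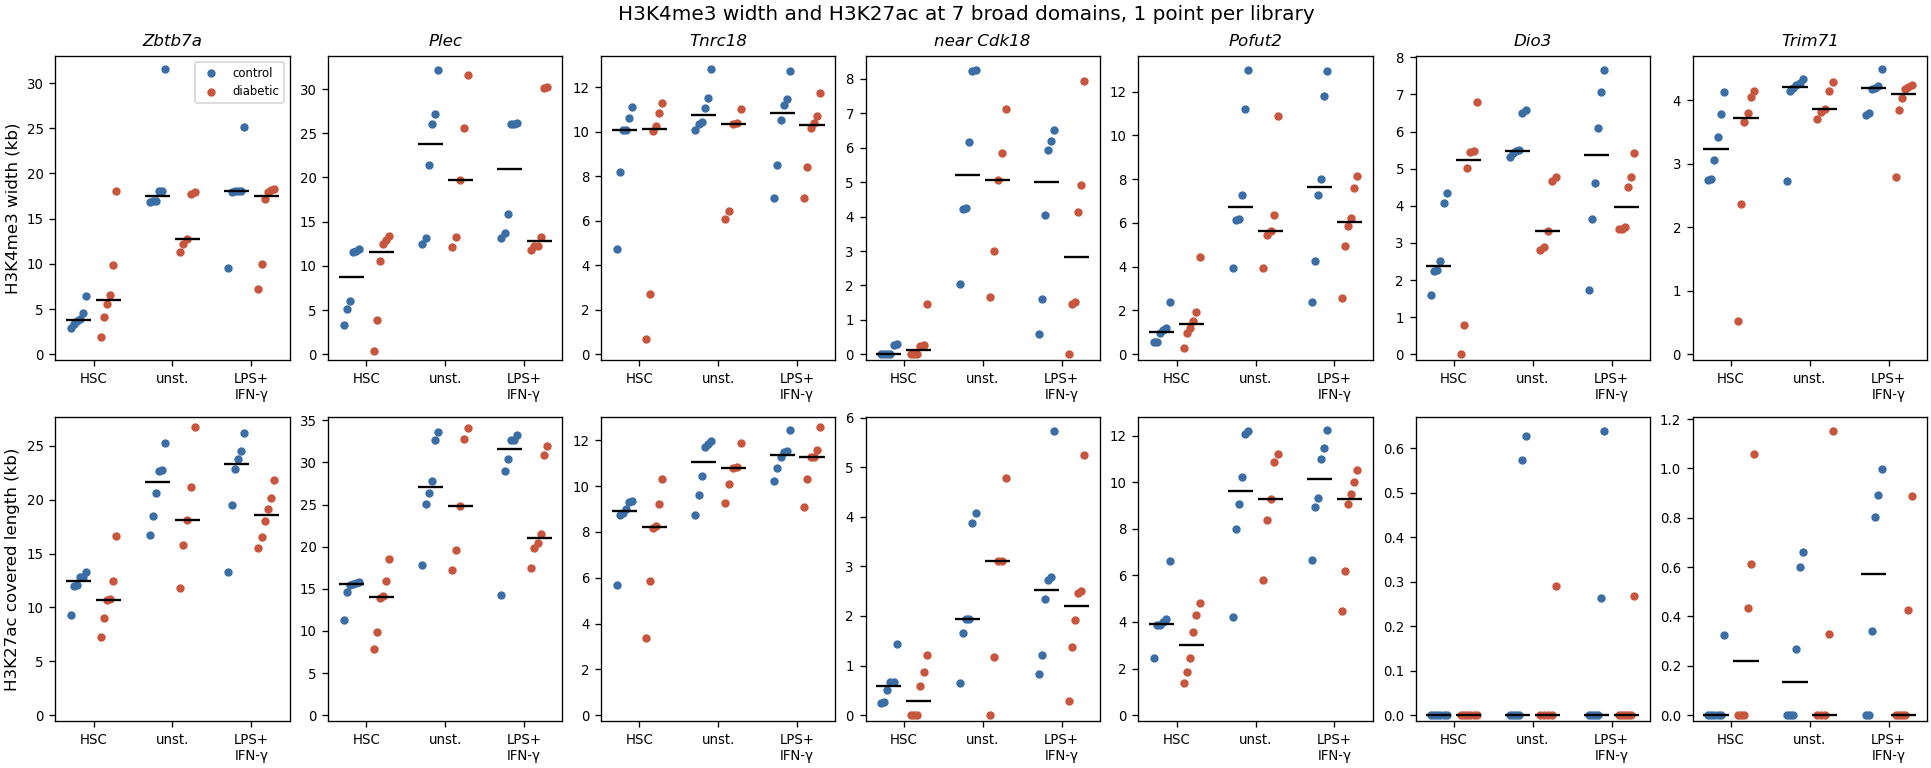
H3K4me3 width in kb (upper row) and length covered by H3K27ac peaks in kb (lower row) at 7 broad domains, with 1 point per library ordered by value within each group, control in blue and diabetic in red, and a black line at the median of each group. Each panel has its own scale. Zbtb7a, near Cdk18 and Pofut2 had higher medians in BMDM than in HSC, and the H3K27ac panels of Dio3 and Trim71 stay near 0.

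Few domains had H3K4me3 widths that separated HSC from BMDM. Each log2 width (with 200 bp added) was centred on the median of its library over all 19657 regions. On this scale the median difference, HSC minus unstimulated BMDM, was -0.03 over the domains and 0.09 over all regions. No domain had all HSC libraries above all unstimulated BMDM libraries, against 0.0712% of all regions, and 4 domains had all HSC libraries below, against 0.0916%. Width chose the members, so nothing is read from these counts. The 4 lay near Cdk18 and near Cux2, both inside or over a protein-coding gene but not at its start site, and over Pofut2, which attaches fucose to proteins, and Plcxd1 with Gtpbp6. Near Cdk18 (chr1:132112190-132122476) the width was 0 to 1.46 kb in HSC (median 0 kb) and 1.65 to 8.25 kb in unstimulated BMDM (median 5.07 kb). Over Pofut2 (chr10:77258540-77271667) it was 0.303 to 4.43 kb and 3.94 to 13.0 kb. Over Plcxd1 and Gtpbp6 (chr5:110098715-110108483) it was 0.251 to 4.37 kb and 4.13 to 8.74 kb. As measured in kb, the first of these pairs did not overlap and the other 2 overlapped slightly. The count was 10 without diabetic HSC replicate 5, 8 without diabetic HSC replicate 6, and 7 without either control HSC replicate 6 or diabetic unstimulated BMDM replicate 5. It was 5 without the H3K4me3 libraries that share a label with the 3 control BMDM libraries set apart by H3K27ac.

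Stimulation with LPS+IFN-γ set no domain apart by width. No domain had widths that did not overlap between the 12 stimulated and 11 unstimulated libraries in either direction, against 0% of all regions. The same held for the domains without the H3K4me3 libraries that share a label with the 3 set apart by H3K27ac. The median difference over domains was 0.00 on the centred log2 scale and that over all regions 0.01.

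Disease left few domains with separate widths. In HSC, 5 domains had all diabetic libraries above all control ones, against 0.789% of all regions, and none had them below, against 0.0814%. They were Lypd3, Matk with Mrpl54, and domains near Cux2, Fam131c and Nxph4, named after their values were seen. Near Nxph4 the width was 0 to 0.752 kb in control and 0 to 4.05 kb in diabetic HSC. All 5 overlapped in kb, and without centring none separated. The count was 26 without control HSC replicate 1, 17 without diabetic HSC replicate 1, 11 and 10 without control HSC replicates 2 and 6, and 8, 10 and 9 without diabetic HSC replicates 2, 3 and 4.

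In unstimulated BMDM, 5 domains were higher in diabetic cells, against 0.366% of all regions, and 15 were lower, against 0.585%. Without centring the counts were 0 and 31. Among those higher were Coro1a, Epor, Fst and a domain near Scaf8. They were higher on the centred scale only: all overlapped in kb, and the diabetic median was below the control one at Coro1a (4.90 against 5.18 kb), Fst (4.53 against 4.94 kb) and near Scaf8 (4.61 against 4.91 kb). Among those lower were Bcorl1, with 5.17 to 5.52 kb in control and 2.13 to 2.28 kb in diabetic libraries, and Ctsz, a cysteine protease of the lysosome, with 2.39 to 6.86 kb and 0.878 to 2.57 kb. At Bcorl1, a corepressor gene, the groups did not overlap in kb, and at Ctsz they did. These domains were also named after their values were seen. Control lists were longer, with a median of 161118 peaks against 96580 in diabetic unstimulated BMDM, and the part of list length was not tested. The count of 20 became 88 without control unstimulated BMDM replicate 4, and 51 and 31 without diabetic replicates 2 and 1. It was 24 without the 2 control H3K4me3 libraries here that share a label with those set apart by H3K27ac. In LPS+IFN-γ BMDM no domain separated, against 0.0102% of regions with diabetic above and 0.0865% with diabetic below. There the count reached 4, 3 and 2 without control replicates 4, 3 and 2, and 2 and 1 without diabetic replicates 3 and 6.

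H3K27ac lay over most broad domains. The H3K27ac peaks of the median list covered 2.17 kb of the median domain in HSC, 3.41 kb in unstimulated and 3.35 kb in stimulated BMDM, against 0.596, 0.834 and 0.796 kb in the other, shorter H3K4me3 regions. Under 0.2 kb was covered in 9.94% of domains in HSC, 1.54% in unstimulated and 3.79% in stimulated BMDM, against 33.3%, 13.8% and 21.6% of the other regions.

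A small set was wide in H3K4me3 and nearly bare of H3K27ac. In 13 domains (1.33%) the median H3K27ac coverage stayed under 0.2 kb in all 3 cell states, against 10.7% of the other regions, and 6 of these covered a protein-coding start site. Among the 6, chosen after their values were seen, were Dio3 (an enzyme that inactivates thyroid hormone), Nr2f2 (a regulator of organ development), Adgrb1 (an adhesion receptor) and Trim71 (a regulator of early development). At Dio3 (chr12:110275141-110284170), whose promoter is printed above, the H3K4me3 width was 2.80 to 6.58 kb in unstimulated BMDM (median 5.32 kb) and 0 to 6.80 kb in HSC (median 3.29 kb). H3K27ac covered 0 kb of it in all 12 HSC libraries and at most 0.626 kb in an unstimulated BMDM library. At Trim71 (chr9:114560412-114565194) H3K4me3 was 2.73 to 4.34 kb wide in unstimulated BMDM and H3K27ac covered at most 1.15 kb. Nr2f2 (chr7:70357118-70362879) had a median width of 4.44 kb in HSC and 4.38 kb in unstimulated BMDM, with a median H3K27ac coverage of 0 kb in both.

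Low H3K27ac was also seen at the Sox, Pax, Fox, Lhx, Tbx and Nkx genes and the relatives of Six3, mostly regulators of development. Their 34 domains had median H3K4me3 widths of 4.02 kb in HSC and 4.72 kb in unstimulated BMDM, and median H3K27ac coverages of 0.579 and 1.20 kb. The same medians over all 976 domains were 2.53 and 4.58 kb for H3K4me3 and 2.17 and 3.41 kb for H3K27ac. At Tbx3 the median H3K27ac coverage was 0 kb in HSC and at Pax7 0 kb. Foxo3, a factor used in blood stem cells, stood apart in this family with 5.07 kb in HSC. In the 10 domains over Hox genes H3K27ac covered a median of 0.373 kb in HSC and 0.811 kb in unstimulated BMDM. Among them the domain over Hoxa3, Hoxa7 and Hoxa9 reached 9.08 kb in HSC. The family was chosen with these values known and no test was made of the difference in level.

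H3K27ac told HSC from BMDM at 342 of the 975 domains tested. Covered length, as centred log2 (bp + 200), was compared with limma over 19331 regions, 975 domains among them, and called at a Benjamini-Hochberg adjusted p under 0.05 over all regions. In HSC 105 domains (10.8%) were higher than in unstimulated BMDM, against 13.7% of all regions. In unstimulated BMDM 237 (24.3%) were higher, against 14.5%. The domains were chosen mostly through BMDM lists, with 135 of them broad in no HSC list, so nothing is read from the gap between these shares and those of all regions. The median difference was -0.18 over the domains and 0.16 over all regions. Without centring the median over all regions moved to -0.22 and the calls to 32 higher and 357 lower in HSC, so the split of the calls depends on the scaling. It was 64 and 194 when the percentile rank of the highest fold was compared, and 85 and 226 without the 3 libraries that go against their labels. The study counts individual animals as replicates, while the labels do not tie a library to an animal. More marked cells and more mark per cell cannot be told apart here.

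**Figure D3:**
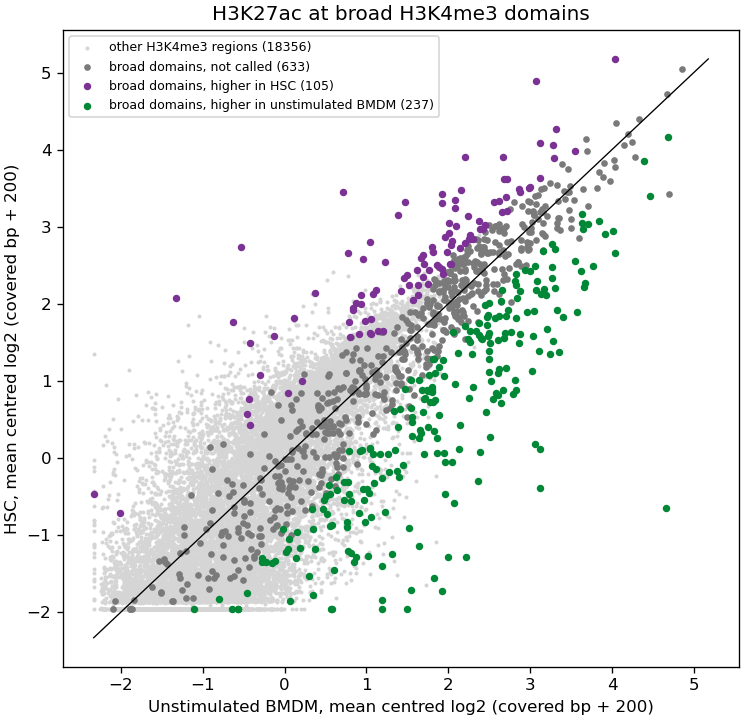
Mean centred log2 length covered by H3K27ac (bp + 200) in unstimulated BMDM (horizontal axis) and in HSC (vertical axis), with 1 point per region: 18356 other H3K4me3 regions in light grey, 633 broad domains without a call in dark grey, 105 called higher in HSC in purple and 237 called higher in unstimulated BMDM in green. The line marks equal values, and most called domains lie below it.

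The 5 domains with more H3K27ac in HSC and the smallest p were Dmtn, Rbm38, Cbfa2t3, Cabp2 and Ptp4a3. Dmtn and Ptp4a3 were broad in 12 of the 35 lists, the fewest allowed, Cbfa2t3 in 14, Cabp2 in 16 and Rbm38 in 18. At Dmtn (chr14:70622235-70630559), the gene of the red cell membrane protein dematin, H3K27ac covered 3.90 to 6.57 kb in HSC (median 4.67 kb) and 0 to 2.02 kb in unstimulated BMDM (median 0.633 kb). The groups did not overlap, and the difference was 3.26 ± 0.39 (SE) on the log2 scale, limma adjusted p = 1.18e-07. At Rbm38 (chr2:173018543-173048495), an RNA-binding protein that acts late in red cell formation, it covered 18.6 to 26.6 kb and 3.38 to 16.9 kb, a difference of 1.82 ± 0.23, adjusted p = 4.01e-07. H3K4me3 width at both genes overlapped widely between the cell states, with medians of 2.71 and 1.63 kb at Dmtn and 4.97 and 3.48 kb at Rbm38.

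Cbfa2t3 (chr8:122695072-122704216), a corepressor of blood progenitors, had 2.25 to 6.48 kb of H3K27ac in HSC and 0.272 to 4.17 kb in unstimulated BMDM, a difference of 1.75 ± 0.23, adjusted p = 8.76e-07. Ptp4a3, a phosphatase, differed by 1.84 ± 0.25 with adjusted p = 1.93e-06. Cabp2 (chr19:4079533-4091124), a calcium-binding protein gene, went the other way in its H3K4me3. Its H3K27ac covered 1.37 to 5.63 kb in HSC and 0 to 1.18 kb in unstimulated BMDM (3.40 ± 0.46, adjusted p = 1.28e-06), while its H3K4me3 was 0 to 2.56 kb wide in HSC and 2.11 to 11.6 kb in unstimulated BMDM. Erythroid markers moved with these calls: over 4 of them H3K27ac covered 3.19 to 5.53 kb in HSC and 0.476 to 1.75 kb in unstimulated BMDM, with 3 and 2 of the 4 carrying a peak in at least 50% of lists. Alas2 had none at that level in either. Over 3 megakaryocyte markers it covered 2.59 to 4.30 and 0.807 to 2.45 kb. The part of such cells in the result was not tested.

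The domains with more H3K27ac in BMDM were led by the complement C1q genes. The domain over C1qa, C1qb and C1qc (chr4:136885600-136899757), the subunits of the complement starter C1q that macrophages secrete, had 0 to 0.883 kb of H3K27ac in HSC (median 0.429 kb) and 4.82 to 13.1 kb in unstimulated BMDM (median 9.75 kb). The difference was -3.50 ± 0.23, limma adjusted p = 2.55e-13. This domain was broad in 14 of the 35 lists. Its H3K4me3 was 0 to 4.83 kb wide in HSC and 2.33 to 6.31 kb in unstimulated BMDM, so the 2 cell states overlapped in H3K4me3 and not in H3K27ac.

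Pmp22 (chr11:63128877-63137454), a membrane protein gene best known from myelin, had overlapping H3K4me3 widths in HSC and unstimulated BMDM and separate H3K27ac. Its H3K4me3 was 0 to 4.69 kb wide in HSC and 1.11 to 8.58 kb in unstimulated BMDM, with a median of 2.99 kb in both. The equal medians hid opposite differences within the disease groups. The HSC and unstimulated BMDM medians were 2.67 and 4.68 kb in control libraries, and 3.70 and 2.31 kb in diabetic ones. H3K27ac covered at most 0.602 kb in HSC and 3.33 to 7.45 kb in unstimulated BMDM (-3.49 ± 0.24, limma adjusted p = 3.02e-13). Speg (chr1:75398825-75407639), a muscle kinase gene, had at most 1.48 kb in HSC (median 0.743 kb) and up to 7.65 kb in unstimulated BMDM (median 5.58 kb), without overlap (-2.31 ± 0.20, adjusted p = 1.39e-10). Domains near Thada and near Nxph4, which cover no protein-coding start site, differed by -3.65 ± 0.30 (adjusted p = 3.96e-11) and -2.88 ± 0.23 (adjusted p = 1.89e-11). The call near Nxph4 was lost when the strongest 10000 peaks of each list were used (adjusted p = 0.561).

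**Figure D4:**
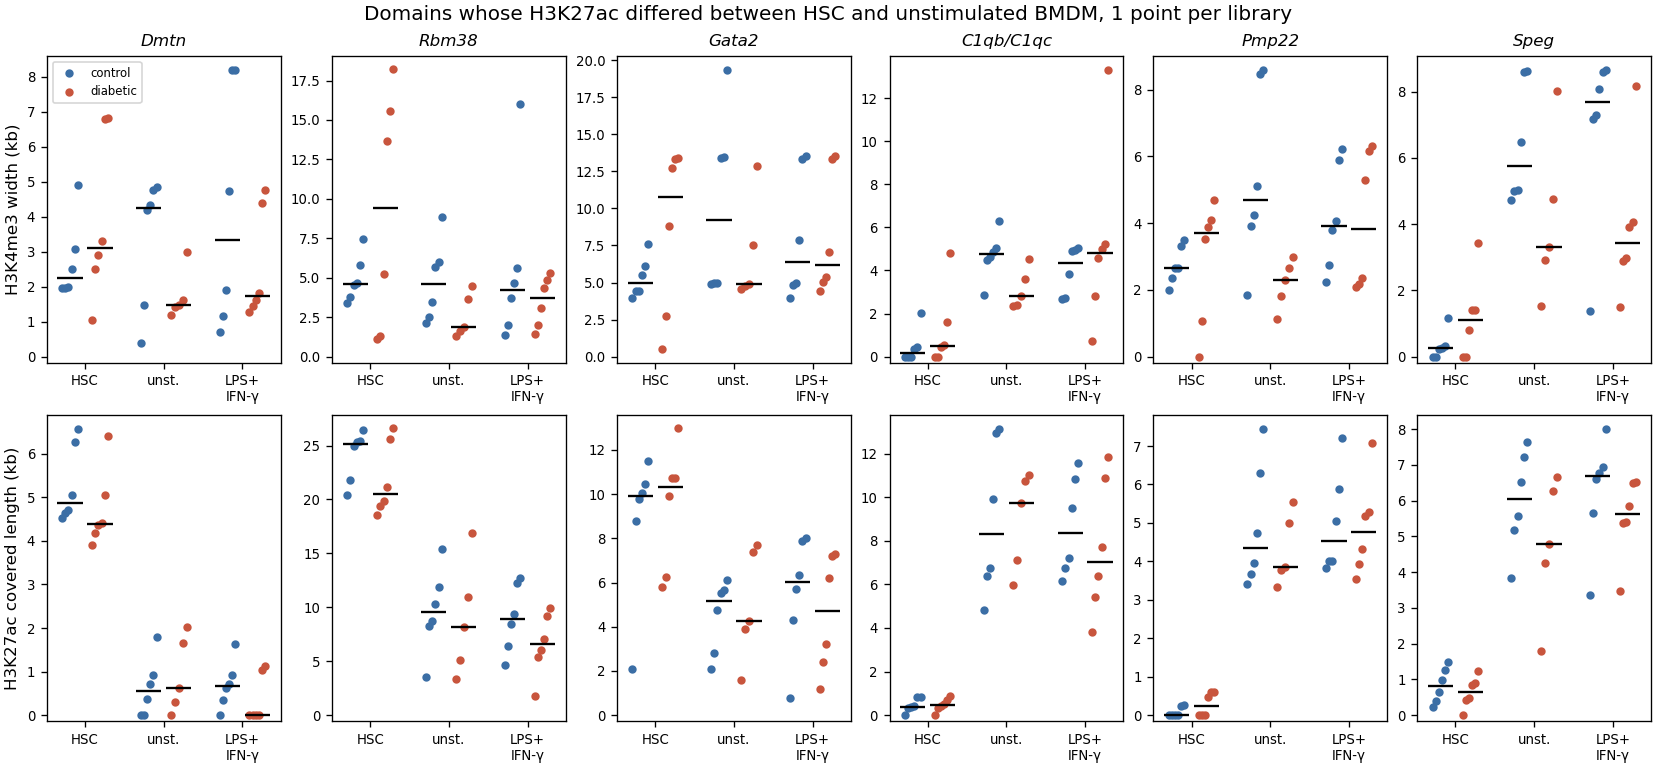
H3K4me3 width in kb (upper row) and length covered by H3K27ac peaks in kb (lower row) at 6 domains called between HSC and unstimulated BMDM by H3K27ac, with 1 point per library ordered by value within each group, control in blue and diabetic in red, and a black line at the median of each group. Each panel has its own scale. H3K27ac separates HSC from unstimulated BMDM at Dmtn, Rbm38, C1qb/C1qc, Pmp22 and Speg, where the H3K4me3 widths overlap.

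Of the 8 stem and progenitor transcription factor domains 6 were called higher in HSC and none lower, against 13.7% and 14.5% of all regions. Their median difference was 0.93, against -0.18 over all domains. Without centring 3 were higher and 1 lower. The median H3K4me3 width of these 8 domains was 3.71 kb in HSC and 5.81 kb in unstimulated BMDM, the other way from Gata2. Gata2 (chr6:88186868-88206976), a factor that maintains stem cells, had an H3K4me3 width of 0.496 to 13.4 kb in HSC (median 5.81 kb) and 4.58 to 19.3 kb in unstimulated BMDM (median 4.99 kb). Its H3K27ac covered 2.09 to 13.0 kb in HSC (median 9.99 kb) and 1.59 to 7.72 kb in unstimulated BMDM (median 4.77 kb), a difference of 1.32 ± 0.25 with limma adjusted p = 2.34e-04 and with overlapping ranges. Zfpm1, a partner of GATA factors, differed by 1.26 ± 0.20 (adjusted p = 1.56e-05, up to 0.137 in the alternatives), Bcl11a, a repressor of fetal globin, by 1.04 ± 0.20 (adjusted p = 2.79e-04) and Lyl1, a factor of progenitors, by 0.51 ± 0.19 (adjusted p = 0.0449). The call of Lyl1 was lost in 22 of 44 alternatives, with an adjusted p of up to 0.789. Runx1 differed by 0.15 ± 0.22 (adjusted p = 0.592), with 2.65 to 4.03 kb of H3K27ac in HSC and 3.24 to 4.71 kb in unstimulated BMDM.

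Of 7 macrophage transcription factor domains 3 were called higher in unstimulated BMDM and none in HSC, against 14.5% and 13.7% of all regions. Their median difference was -0.28, and 6 were called without centring. Irf8, a factor of monocyte development, differed by -0.72 ± 0.20 (adjusted p = 0.00705, up to 0.311 in the alternatives) and Bhlhe41 by -0.71 ± 0.21 (adjusted p = 0.0108). Cebpb, Klf4, Atf3 and Egr2 were not called, with differences from -0.28 to 0.22.

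Among the developmental family 3 of 34 domains were called higher in HSC and 6 higher in unstimulated BMDM, against 13.7% and 14.5% of all regions, and without centring none and 9. By percentile rank 4 were higher in HSC and 2 in unstimulated BMDM, and with the strongest 10000 peaks, where 4 could be tested, 2 and none. Lhx2 had the largest of these differences (-2.43 ± 0.27, adjusted p = 4.00e-08), with a median of 0.479 kb of H3K27ac in HSC and 4.33 kb in unstimulated BMDM. Of the 10 Hox domains 1 was called in each direction, and without centring none and 3. Hoxa9 with Hoxa3 and Hoxa7 was higher in HSC (1.17 ± 0.28, adjusted p = 0.00214, up to 0.143 in the alternatives).

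In the domains called higher in HSC the centred H3K4me3 width was greater in HSC at 62 of 105, and in those called higher in unstimulated BMDM it was greater there at 157 of 237. Of the domains not called it was greater in HSC at 331 of 633. Width chose the domains, so this is a description.

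Stimulation with LPS+IFN-γ was set against no stimulation by H3K27ac. By limma no domain was called, against 0.0931% of all regions, with 105 domains at an unadjusted p under 0.05 and a median difference of 0.02 over the domains and 0.03 over all regions. Without the 3 control libraries that go against their labels 17 domains were called, 3 higher and 14 lower after stimulation, against 0.238% and 0.424% of all regions. Those libraries were singled out by the H3K27ac compared here, so what follows without them is a description and its calls support nothing. Single libraries also decided the count, which was 6 without control unstimulated BMDM replicate 5, 3 without control LPS+IFN-γ BMDM replicate 5, and 1 without control unstimulated BMDM replicate 1 or diabetic unstimulated BMDM replicate 4. Without the 3 libraries Helz2, a helicase gene of the interferon response, had a difference of 0.94 on the log2 scale, the domain of Mmp9, a matrix protease, 1.03 and Bcar1, an adhesion scaffold, 0.96. The difference was -2.09 at Jag2, a Notch ligand, -1.73 at Tesc, a calcium-binding protein, and -1.10 at a second domain near Jag2. These were named after their values were seen. With all libraries Helz2 had 2.34 to 8.22 kb of H3K27ac in unstimulated and 4.11 to 11.9 kb in LPS+IFN-γ BMDM (adjusted p = 0.118), and Socs3, the only gene of the 26 on the response list with a start site in a domain, had 1.48 to 5.36 and 4.02 to 6.08 kb (0.57 ± 0.19, adjusted p = 0.319). Both pairs of ranges overlapped.

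Disease called no broad domain by H3K27ac. By limma the count was 0 of 975 in HSC (38 at an unadjusted p under 0.05), against 0.00517% of all regions, 0 in unstimulated BMDM (7 unadjusted), against 0%, and 0 in stimulated BMDM (36 unadjusted), against 0.0103%. The median difference between diabetic and control was 0.20 over the domains in HSC and 0.33 over all regions, and 0.00 and 0.02 in unstimulated BMDM. Without centring the medians in HSC turned to -0.18 and -0.05. The comparison of the disease effect between HSC and unstimulated BMDM called 0 domains (7 unadjusted), against 0% of regions. The stimulation difference in diabetic minus that in control BMDM also called 0 (39 unadjusted), against 0%. Each of these counts stayed at 0 in every alternative run, that of percentile ranks included.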

How the data were processed

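ChIP-seq of H3K4me3 and H3K27ac gave 70 peak lists, 35 per mark; 36 input samples had no list used here. The submitters' processing notes name builds GRCm38 and mm10 and the tools Trim Galore 0.3.3, cutadapt 1.8, FastQC 0.11.3, Bowtie2 2.2.6, Picard 2.18.14 and 2.19.2, bedtools 2.19.1 and MACS2 2.2.7.1. Each deposited peak carries the authors' score, a fold ratio over background, and -log10 p and -log10 q. Values were used to rank peaks within a list only. No region ended past a GRCm38 chromosome.

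Chromosomes 1 to 19, X and Y were used. Groups follow the labels (mark, cell state, disease). All H3K4me3 regions are the domains plus stretches of 1 kb or more covered in at least 12 lists. Start sites came from GENCODE M21. H3K27ac was the length of a region covered by peaks, as log2 with a pseudocount of 200 bp, centred on the library median; regions with a peak in at least 5 libraries were fitted with limma 3.58.1 in R 4.3.3 on all 35 libraries, with Benjamini-Hochberg adjustment over all regions. The fit was tested on simulated data. Python 3.11.15 made the measures.

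Domains named are the 8 widest over genes, up to 6 per direction with widths that do not overlap between HSC and unstimulated BMDM, up to 5 called per direction (3 for disease), 3 on either side of the threshold, examples from gene lists, and Il6, Hk1 and Runx1; others are stated as chosen after their values were seen. The members and lists were chosen with earlier results of these data known. The lists give no read totals, so depth and counting precision are unknown. Alternatives are given in the closing section. Some domains that this rule names are not reported here.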

Additional observations from a re-analysis of the deposited data

Results flagged for a closer look

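Within the groups of 5 or 6 libraries, 1 library lay far from the rest of its group in H3K4me3: control HSC replicate 1 held 526 broad domains, the highest count of its group, and its median domain width was 4.17 kb, also the highest. Dixon's criterion was applied to 24 sets of values, and chance passes about 1 set in 20. No difference between groups in the effect of disease or stimulation was called.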

How the results depend on the processing

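The number of domains depends on the definition: 277 with a join distance of 0.5 kb, 2849 with 2 kb, 2079 with a least width of 3 kb, 511 with 5 kb, 2292 when broad in at least 6 lists, 476 in at least 18, and 67 from the strongest 10000 peaks of each list. Leaving out single libraries gave 856 to 976.

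Domains with widths that do not overlap between HSC and unstimulated BMDM numbered 8 without centring and 20 by covered length (4 to 10 with single libraries left out). For disease they numbered 0 in HSC without centring and 1 from the strongest peaks (5 to 26 with single libraries left out), 31 in unstimulated BMDM without centring and 7 by covered length (20 to 88), and 3 in LPS+IFN-γ BMDM by covered length (0 to 4). For stimulation all alternatives gave 0 (0 to 0). The cause of these shifts was not tested.

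Calls by H3K27ac between HSC and unstimulated BMDM numbered 173 from the strongest peaks, where 444 domains were tested, and 295 to 378 with single libraries left out. Calls by stimulation numbered 6 with a pseudocount of 1000 bp, 4 by percentile rank, 5 from the strongest peaks, 1 with covered length as a covariate and 17 without the 3 control BMDM libraries that go against their labels (0 to 6 with single libraries left out). Calls by disease and both differences of differences stayed at 0 (0 to 0). Of 437 values of the 10 domains with the smallest p, 5 per direction, 436 kept their direction and call. Other called domains named that lost the call in at least 1 alternative included Plec, Cilp2 with Yjefn3, Gm10722, Gm21887, Gm47283, Zfpm1, Lyl1, Irf8 and Hoxa9. Pofut2, Pou3f1, Ntng2, Epor and the domain near Cdk18 also lost it in at least 1.

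The replicate numbers showed no clear pairing of the samples by H3K27ac, which cannot show that same-numbered libraries came from different animals. Same-numbered libraries correlated from -0.285 to 0.369, over 0.1 in 20 of 39 pairs, and in 10 each library correlated best with its own number. With a replicate block 315 domains were called between HSC and unstimulated BMDM and 0 in each other comparison. The width alternative without the H3K4me3 libraries that share a label with the 3 set apart by H3K27ac was chosen after seeing the data.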
